A study of Homo sapiens and Mus musculus with 13 samples.

Results

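The 32 genes described here encode fibroblast markers and extracellular matrix proteins other than collagens. They were named individually, with earlier results of these data known, and found by symbol in a table of 55228 mouse genes, where all 32 were present. They fall into 7 roles, namely fibroblast markers, proteoglycans, elastic fiber and microfibril proteins, lysyl oxidases, matricellular proteins, the basement membrane linker Nid1 and the insulin-like growth factor (IGF) pair Igf1 and Igfbp4. RNA-Seq was performed on 6 mammary tumors, 3 Trim11+/+ and 3 Trim11+/-, of mice at the age of 3 months. The other samples of the study, human cell lines, were not used. The paper counts more tumors than mice, and the sample titles number the samples without naming a mouse. Whether each tumor came from a different mouse is therefore not known. The mice were hybrids, of FVB/N-Tg (MMTV-PyVT) 634Mul/J on one side and C57BL/6N on the other, and carried the MMTV-PyVT transgene. In this transgene a mammary tumor virus promoter drives a viral oncogene mainly in mammary epithelium, so that the stroma was the host's own. The paper places this cross after at least 3 generations of backcrossing and does not name the strain used for them. The Trim11+/- mice carried a CRISPR/Cas9 deletion of exons 2 to 6 of 1 Trim11 allele in every cell, stroma included. The strain entry of the labels reads Trim11+/- for the wild type tumors as well, with line numbers that run from 634 to 639 over the 6 tumors. The genotype entry was used here.

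Fibroblasts are the main makers of interstitial matrix in the mammary gland. Fibrillin microfibrils form the scaffold on which elastin is laid down and hold latent TGF-beta, fibulins and microfibril-associated glycoproteins bind to that scaffold, and lysyl oxidases crosslink elastin and collagen. Small leucine-rich proteoglycans such as decorin and lumican coat collagen fibrils, whereas matricellular proteins such as periostin and tenascins act more as signals to cells than as structure. Several of these genes are not particular to fibroblasts, since pericytes also express Pdgfrb and endothelial cells also make Sparc.

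Trim11, the targeted gene (ENSMUSG00000020455.16, chromosome 11 of mm10 from 58978093 to 58991458), had 35.8, 36.3 and 39.2 FPKM in Trim11+/+ tumors 1 to 3. It had 24.0, 22.8 and 22.9 FPKM in Trim11+/- tumors 1 to 3. FPKM is the number of fragments scaled to the length of a gene's exons and to the size of the library, so that levels of genes of different length can be compared. The genotypes did not overlap, and the ratio of means was 0.626. On the log2(FPKM + 1) scale the difference was -0.65 with a standard error (SE) of 0.08 and an adjusted p of 0.199 in limma. The libraries held between 8793199 and 11117125 reads as recovered from the values, and the 32 genes had between 23 and 11537 reads each in a tumor.

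All 32 genes were detected in every tumor and passed the filter, a mean of at least 0.5 FPKM over the 6 tumors, as did 17328 genes in all. Mean levels ran from 1.70 FPKM for Tnxb to 146 FPKM for Sparc, or from the 21.8th to the 98.6th percentile of the genes tested. Together the 32 genes took between 0.127% and 0.220% of the summed FPKM of a tumor. Sparc, Postn and Thbs1 alone made up between 46.4% and 54.5% of that share. By contrast, a list of 7 luminal epithelial markers summed to between 1636 and 2161 FPKM, as against 20.5 to 58.9 FPKM for the 6 fibroblast markers. The fibroblast marker list leaves out the more abundant Dcn, Lum, Postn and Sparc, so these sums do not measure the share of each cell type.

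**Figure D1:**
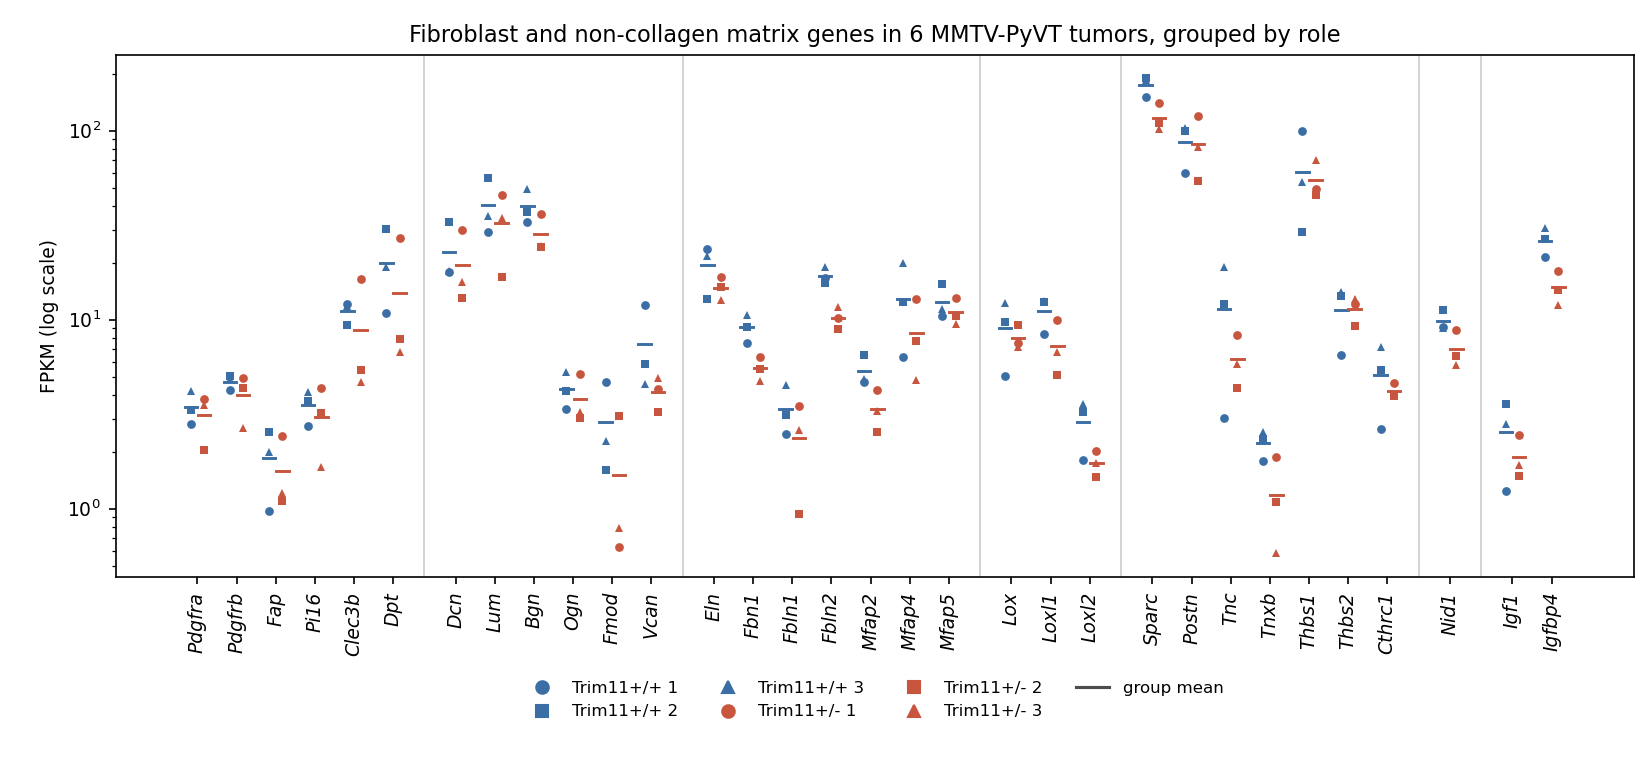
FPKM (log axis) of the 32 genes in each of the 6 tumors, grouped by role and separated by vertical lines, with Trim11+/+ tumors in blue, Trim11+/- tumors in red and horizontal bars for the group means. Sparc, Postn and Thbs1 stand highest, and the blue and red points are separate for Fbn1, Fbln2, Mfap2, Sparc, Nid1 and Igfbp4.

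Most of the 32 genes were lower on average in Trim11+/- tumors. Their summed level overlapped between the genotypes, at 577 to 710 FPKM in Trim11+/+ and 405 to 632 FPKM in Trim11+/- tumors. Genes can vary together within a tumor, so counts of genes are not counts of independent observations. The log2 fold change, Trim11+/- minus Trim11+/+ on the log2(FPKM + 1) scale, was below 0 for 30 of the 32 genes, beside 50.9% of all genes tested. Its median over the 32 genes was -0.45, with a range from -0.78 for Igfbp4 to 0.07 for Thbs2, beside a median of -0.0048 over all genes tested. A gene was called when the ratio of mean FPKM was at least 1.5 in either direction and the unadjusted limma p was under 0.05. By this rule 5 of the 32 genes were called lower in Trim11+/- tumors, namely Fbln2, Fbn1, Mfap2, Tnxb and Igfbp4, where 1.87% of all genes tested were called lower. None was called higher, where 1.74% of all genes were, and 3.61% were called in either direction. For 6 of the 32 genes, Fbln2, Fbn1, Mfap2, Sparc, Nid1 and Igfbp4, the highest of the Trim11+/- tumors lay under the lowest of the Trim11+/+ tumors, and this held for 6.78% of all genes. None was separated in the other direction, beside 6.60% of all genes.

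None of the 32 genes passed an adjusted p of 0.05 in limma, the lowest being 0.437 for Fbln2, and over all genes 1 did (0.00577%). An unadjusted limma p under 0.05 was found for 7 of the 32 genes, the 6 separated genes and Tnxb, all lower, where 3.29% of all genes were lower at this p and 6.94% differed in either direction. A two-sided exact permutation test of 3 against 3 tumors cannot give a p below 0.1, which is the value of each separated gene. Since these are whole tumors, fewer cells of a type and less RNA per cell cannot be told apart. The paper reports slower growth and a lower weight and volume of tumors in Trim11+/- mice. Tumor size therefore cannot be told apart from genotype either.

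**Figure D2:**
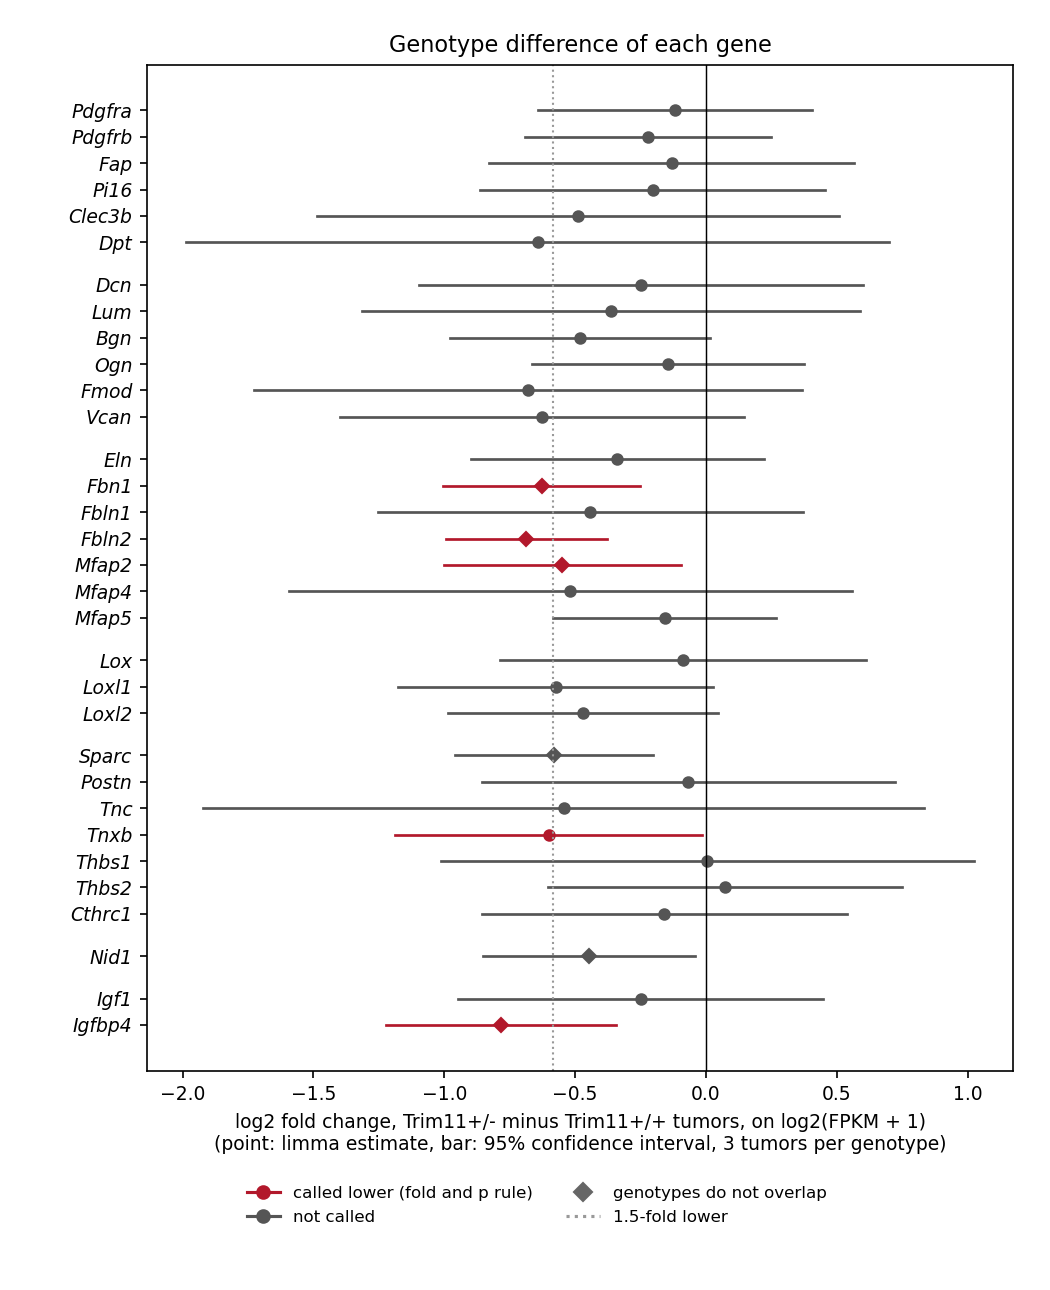
Log2 fold change of each gene (Trim11+/- minus Trim11+/+, log2(FPKM + 1) scale, horizontal axis) with its 95% confidence interval from limma, 3 tumors per genotype, in the order of the roles. The 5 genes called lower are red, diamonds mark the 6 genes whose genotypes did not overlap, and 30 of the 32 points lie left of 0.

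Genes of elastic fibers and microfibrils held 3 of the 5 calls. All 7 had a log2 fold change below 0, with a median of -0.52, and their summed level was 71.9, 75.2 and 92.0 FPKM in Trim11+/+ tumors 1 to 3 and 66.8, 51.0 and 49.3 FPKM in Trim11+/- tumors 1 to 3. Each of the 7 had its highest level in a Trim11+/+ tumor and its lowest in a Trim11+/- tumor. This has to hold for Fbln2, Fbn1 and Mfap2, whose genotypes did not overlap, and its share over all genes was not counted.

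Fbln2 encodes fibulin-2, a glycoprotein that bridges elastic fibers and basement membranes (ENSMUSG00000064080.12, chromosome 6 from 91212455 to 91272540). It had 16.6, 15.7 and 18.9 FPKM in the Trim11+/+ tumors and 10.2, 8.94 and 11.7 FPKM in the Trim11+/- tumors. The lowest Trim11+/+ value was well above the highest Trim11+/- value, and the means were 17.1 ± 1.68 and 10.3 ± 1.36 FPKM (SD, n = 3 each). In limma its log2 fold change was -0.69 (SE 0.13, 95% confidence interval from -0.99 to -0.38, adjusted p = 0.437 in limma). Of the 32 genes it had the smallest spread between tumors of one genotype, a pooled coefficient of variation of 11.7%, and it was called whichever tumor was left out.

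Fbn1 encodes fibrillin-1, the main building block of microfibrils (ENSMUSG00000027204.13, chromosome 2 from 125300594 to 125507993). Its levels were 7.55, 9.16 and 10.6 FPKM in the Trim11+/+ tumors and 6.39, 5.46 and 4.72 FPKM in the Trim11+/- tumors. The genotypes were separate, with means of 9.09 ± 1.51 and 5.52 ± 0.835 FPKM (SD, n = 3 each). This gave a log2 fold change of -0.63 (SE 0.16, 95% confidence interval from -1.003 to -0.25, adjusted p = 0.598 in limma), and the gene was called in all 6 fits that left out a tumor. The annotation places Gm9913 on the opposite strand over 2442 bases, 20.1% of the exons of Fbn1, and the libraries do not keep strand. Gm9913 itself was at 0.741 FPKM on average over the 6 tumors.

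Mfap2 encodes a small microfibril-associated glycoprotein that binds fibrillin (ENSMUSG00000060572.17, chromosome 4 from 141010418 to 141015984). It had 4.69, 6.50 and 4.85 FPKM in the Trim11+/+ tumors and 4.23, 2.54 and 3.30 FPKM in the Trim11+/- tumors, which did not overlap but came close in Trim11+/- tumor 1. Mfap2 had a log2 fold change of -0.55 (SE 0.19, adjusted p = 0.682 in limma). The transcript is short and had only 27 to 80 reads a tumor, so that counting alone gives a coefficient of variation of 13.5%, the largest of the 32 genes. Its call was lost without Trim11+/+ tumor 2, Trim11+/- tumor 2 or Trim11+/- tumor 3, and also with the replicate number as a block.

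The other 4 genes of the group overlapped between the genotypes and none was called. Eln encodes elastin itself and was the most abundant, with 23.8, 12.9 and 21.8 FPKM in the Trim11+/+ tumors and 16.8, 14.8 and 12.8 FPKM in the Trim11+/- tumors. Trim11+/+ tumor 2 stood with the Trim11+/- tumors for this gene. Fbln1, which encodes fibulin-1, was the least abundant, with 2.49, 3.13 and 4.49 FPKM against 3.50, 0.937 and 2.62 FPKM. The microfibril-associated genes Mfap4 and Mfap5 had log2 fold changes of -0.52 (SE 0.45) and -0.16 (SE 0.18).

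The 3 lysyl oxidases, which crosslink elastin and collagen, were not called. Loxl1, known for its part in elastic fiber renewal, was the most abundant, with 8.38, 12.4 and 12.6 FPKM in the Trim11+/+ tumors and 10.01, 5.11 and 6.72 FPKM in the Trim11+/- tumors. The genotypes overlapped through Trim11+/+ tumor 1 and Trim11+/- tumor 1. Its log2 fold change was -0.57 (SE 0.25, 95% confidence interval from -1.18 to 0.03). Loxl2 was the least abundant, with 1.81, 3.24 and 3.58 FPKM against 2.03, 1.47 and 1.74 FPKM and a log2 fold change of -0.47 (SE 0.22). Lox itself was lowest in Trim11+/+ tumor 1, at 5.02 FPKM, and highest in Trim11+/+ tumor 3, at 12.3 FPKM, and the Trim11+/- tumors lay between them.

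Among matricellular proteins the members differed from one another. Sparc encodes osteonectin, a secreted protein that binds collagen (ENSMUSG00000018593.13, chromosome 11 from 55394500 to 55423183). It had 151, 189 and 186 FPKM in the Trim11+/+ tumors and 140.1, 110.1 and 102 FPKM in the Trim11+/- tumors. All 3 Trim11+/- tumors were below the Trim11+/+ tumors, with means of 117 ± 20.1 and 175 ± 21.4 FPKM (SD, n = 3 each). The log2 fold change was -0.58 (SE 0.16, 95% confidence interval from -0.96 to -0.20, adjusted p = 0.634 in limma). The ratio of means of 0.669 falls just short of a 1.5-fold difference, so that Sparc was not called. It was called without Trim11+/+ tumor 1 or without Trim11+/- tumor 1. On chromosome 11, Sparc and Mfap4 (from 61485431) lie near Trim11 (from 58978093), and Igfbp4 lies farther away. The deletion was made in C57BL/6N mice, so alleles of that strain linked to it cannot be told apart from the genotype.

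Tnxb encodes tenascin-X, which binds collagen fibrils in connective tissue (ENSMUSG00000033327.16, chromosome 17 from 34670535 to 34719815). It was the least abundant of the 32 genes, with 1.78, 2.33 and 2.55 FPKM in the Trim11+/+ tumors and 1.87, 1.08 and 0.580 FPKM in the Trim11+/- tumors. It was called lower although Trim11+/- tumor 1 was above Trim11+/+ tumor 1. The log2 fold change was -0.60 (SE 0.24, adjusted p = 0.713 in limma), and with an unadjusted limma p of 0.0460 the call was lost in 5 of the 9 other settings that kept all tumors and the 1.5-fold rule, and in 4 of the 6 fits that left out a tumor.

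Tnc encodes tenascin-C, a matrix signal of remodeling tissue, and had the widest range in the group, with 3.03, 12.1 and 19.1 FPKM in the Trim11+/+ tumors and 8.29, 4.36 and 5.84 FPKM in the Trim11+/- tumors. Its Trim11+/+ tumors stood on both sides of the Trim11+/- tumors. Postn, which encodes periostin, had 59.5, 99.3 and 104 FPKM against 119, 54.5 and 81.7 FPKM, a log2 fold change of -0.07 (SE 0.33, 95% confidence interval from -0.86 to 0.72). Trim11+/- tumor 1 had the highest level of this gene and Trim11+/- tumor 2 the lowest.

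The thrombospondins, which bind cells and activate latent TGF-beta or restrain vessel growth, were the only genes with a log2 fold change above 0. Thbs2 had a value of 0.07 (SE 0.28) and Thbs1 of 0.01 (SE 0.43, 95% confidence interval from -1.01 to 1.02). Thbs1 ranged from 29.1 FPKM in Trim11+/+ tumor 2 to 99.8 FPKM in Trim11+/+ tumor 1, so that one genotype held both ends, and its ratio of means was 0.906. The annotated Gm29233 lies on the opposite strand over 208 bases, 3.4% of the exons of Thbs1, and had a mean of 110 FPKM, and reads in the shared bases cannot be told apart. Cthrc1, a secreted protein of activated fibroblasts, had a log2 fold change of -0.16 (SE 0.29), and its Trim11+/+ tumors also ran from the lowest level of the 6, 2.64 FPKM in tumor 1, to the highest, 7.19 FPKM in tumor 3.

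Nid1 encodes nidogen-1, which links laminin and collagen IV in basement membranes (ENSMUSG00000005397.8, chromosome 13 from 13437551 to 13512269). It had 9.20, 11.2 and 9.07 FPKM in the Trim11+/+ tumors and 8.84, 6.42 and 5.78 FPKM in the Trim11+/- tumors. The genotypes were separate by a narrow margin, at Trim11+/- tumor 1. The log2 fold change was -0.45 (SE 0.17, adjusted p = 0.704 in limma), and the ratio of means, 0.713, did not reach the fold of the call.

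Igfbp4 encodes an IGF binding protein that holds IGF away from its receptor (ENSMUSG00000017493.12, chromosome 11 from 99041244 to 99054392). It had 21.6, 26.6 and 30.4 FPKM in the Trim11+/+ tumors and 18.1, 14.4 and 12.0 FPKM in the Trim11+/- tumors. The genotypes did not overlap, and the means were 26.2 ± 4.43 and 14.9 ± 3.07 FPKM (SD, n = 3 each). Its log2 fold change of -0.78 (SE 0.18, 95% confidence interval from -1.22 to -0.35, adjusted p = 0.593 in limma) was the furthest from 0 of the 32 genes, and it was called in all 6 fits that left out a tumor. Igf1, the growth factor, was much less abundant, with 1.24, 3.59 and 2.81 FPKM against 2.45, 1.48 and 1.71 FPKM. It overlapped between the genotypes, with a log2 fold change of -0.25 (SE 0.29).

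The 6 proteoglycans all had a log2 fold change below 0, with a median of -0.42, but none was called and all overlapped between the genotypes. Lum, which encodes the fibril coating proteoglycan lumican, was the most abundant, with 29.0, 56.5 and 35.6 FPKM in the Trim11+/+ tumors and 45.8, 16.8 and 34.6 FPKM in the Trim11+/- tumors. Its neighbor Dcn, which encodes decorin and lies 47.0 kb away on chromosome 10, also had its highest level in Trim11+/+ tumor 2, at 32.8 FPKM, and its lowest in Trim11+/- tumor 2, at 13.0 FPKM. Log2 fold changes were -0.36 (SE 0.40) for Lum and -0.25 (SE 0.35) for Dcn.

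Bgn, which encodes biglycan, had the smallest limma p among the proteoglycans without reaching the threshold or the fold, with 33.1, 36.9 and 49.2 FPKM against 36.0, 24.1 and 24.6 FPKM and a log2 fold change of -0.48 (SE 0.21, 95% confidence interval from -0.98 to 0.01). Fmod, which encodes fibromodulin, was the least abundant, with 4.71, 1.61 and 2.29 FPKM in the Trim11+/+ tumors and 0.626, 3.10 and 0.788 FPKM in the Trim11+/- tumors. It was the most uneven of the 32 genes, 7.52-fold from the lowest tumor to the highest. Vcan, which encodes the large proteoglycan versican, was at 12.0 FPKM in Trim11+/+ tumor 1 and between 3.24 and 5.80 FPKM in the other 5 tumors, with a ratio of means of 0.558 that passed the fold but not the p of the call, while Ogn, which encodes osteoglycin, ran from 3.01 to 5.32 FPKM.

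The fibroblast markers differed little between the genotypes relative to their spread. All 6 had a log2 fold change below 0, with a median of -0.21, and none was called or separated. Dpt, which encodes dermatopontin and is a marker of resting fibroblasts in many tissues, was the most abundant, with 10.8, 30.2 and 19.0 FPKM in the Trim11+/+ tumors and 27.0, 7.92 and 6.75 FPKM in the Trim11+/- tumors. Its log2 fold change was -0.64 (SE 0.56), with a 95% confidence interval from -1.99 to 0.70. Fap, fibroblast activation protein, was the least abundant, with 0.970, 2.55 and 2.01 FPKM against 2.43, 1.10 and 1.22 FPKM.

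The platelet-derived growth factor receptors gave the narrowest intervals among the fibroblast markers. The log2 fold change was -0.12 (SE 0.22, 95% confidence interval from -0.64 to 0.40) for Pdgfra, the general fibroblast receptor, and -0.22 (SE 0.20, 95% confidence interval from -0.69 to 0.25) for Pdgfrb. Pi16 and Clec3b, markers of fibroblasts around vessels, had log2 fold changes of -0.20 (SE 0.28) and -0.49 (SE 0.42), and both were highest in Trim11+/- tumor 1, at 4.34 and 16.4 FPKM.

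The 6 tumors did not split evenly by genotype. Of the 32 genes, 29 had their highest level in a Trim11+/+ tumor, 15 of them in tumor 3, 10 in tumor 2 and 4 in tumor 1. The lowest level was in a Trim11+/- tumor for 25 genes, 12 each in tumors 2 and 3 and 1 in tumor 1. The 6 separated genes have to count in both, and the same shares over all genes were not counted. Tumor 1 of each genotype went against its group for part of the genes. Trim11+/+ tumor 1 had the lowest level of 6 genes, namely Fap, Lox, Tnc, Thbs2, Cthrc1 and Igf1, but the highest of Thbs1, Vcan, Fmod and Eln. Trim11+/- tumor 1 had the highest level of Pi16, Clec3b and Postn.

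The median deviation of the 32 genes from their mean over the 6 tumors, on the log2(FPKM + 1) scale, was -0.11, 0.29 and 0.34 in Trim11+/+ tumors 1 to 3 and 0.14, -0.35 and -0.29 in Trim11+/- tumors 1 to 3. Without Trim11+/+ tumor 1, 12 genes were called lower, where 2.41% of all genes were, and the 7 added were Bgn, Loxl1, Loxl2, Sparc, Tnc, Cthrc1 and Igf1. Without Trim11+/- tumor 1, 11 were called lower, where 2.70% of all genes were, and the 6 added were Clec3b, Dpt, Bgn, Loxl1, Sparc and Nid1. Without Trim11+/- tumor 3, the 3 genes Fbln2, Fbn1 and Igfbp4 were called, where 2.09% of all genes were.

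**Figure D3:**
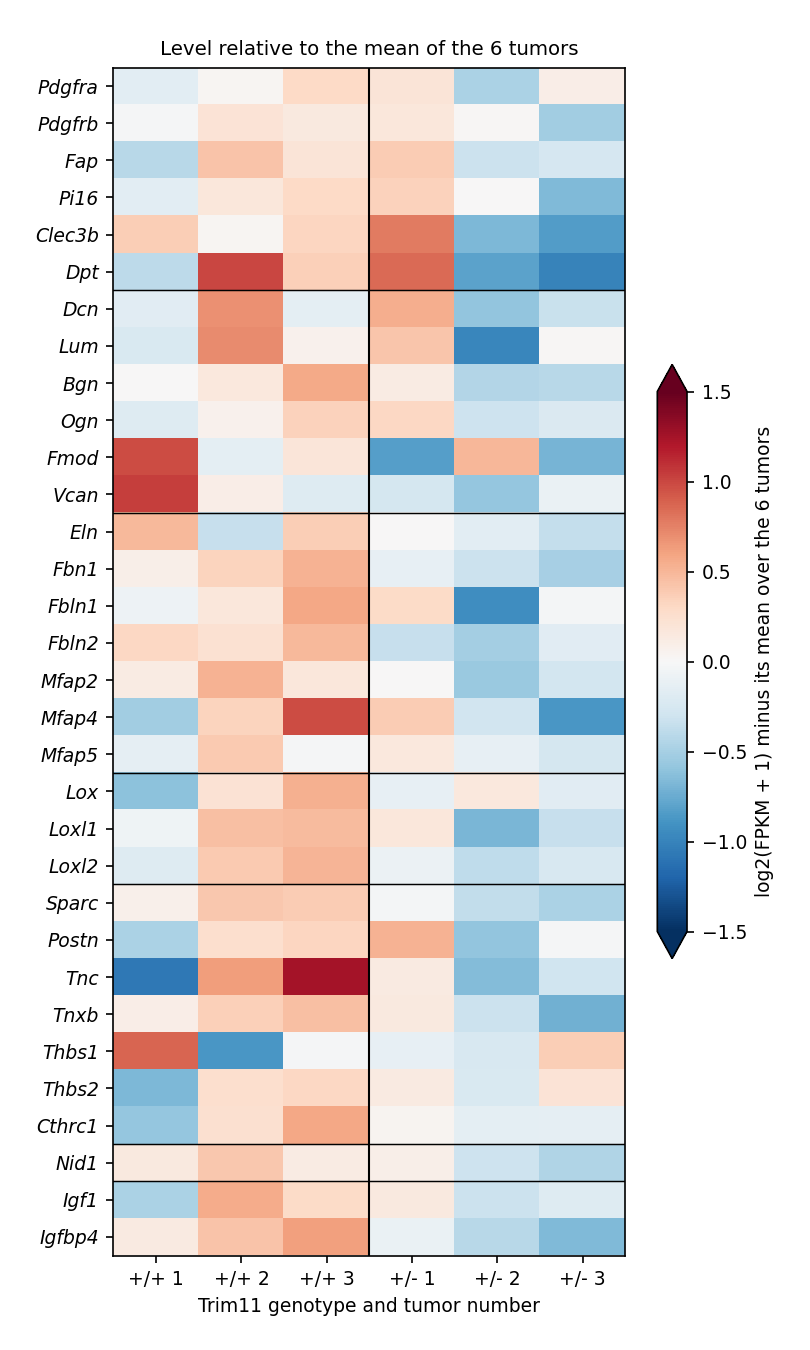
Level of each gene (rows, grouped by role) in each tumor (columns) as log2(FPKM + 1) minus its mean over the 6 tumors, red above and blue below that mean. Trim11+/+ tumors 2 and 3 are mostly red and Trim11+/- tumors 2 and 3 mostly blue, while tumor 1 of each genotype is mixed, with median deviations of -0.11 and 0.14.

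The spread between tumors of one genotype exceeded what counting reads gives. The pooled coefficient of variation ran from 11.7% to 76.4% over the 32 genes, with a median of 31.7%, whereas counting error alone gave 1.13% to 13.5%. For 31 genes the first was more than 2 times the second. The highest tumor was at least 2 times the lowest for 26 of the 32 genes.

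Markers of other cell types were set beside these genes, since a tumor piece can hold neighboring tissue. The skeletal muscle list of 7 genes summed to 25.4, 124 and 252 FPKM in Trim11+/+ tumors 1 to 3 and to 316, 2.56 and 2.44 FPKM in Trim11+/- tumors 1 to 3, and 2 of its genes were at 0 in at least 1 tumor. None of the 7 was called, but all 7 had a log2 fold change below 0, with a median of -1.38, which is further from 0 than the median of -0.45 of the matrix genes. The 6 fibroblast markers summed to 33.7, 54.3 and 45.9 FPKM and to 58.9, 24.0 and 20.5 FPKM in the same order, so that the 3 tumors richest in muscle transcripts were also the 3 with most fibroblast marker RNA. The part of muscle or its connective tissue in the matrix genes was not tested. The 9 adipocyte markers summed to 59.4, 424 and 95.8 FPKM and to 347, 186 and 30.2 FPKM, with none called, 7 of 9 log2 fold changes below 0 and a median of -0.23.

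Set apart by this muscle sum, after it was seen, the 3 tumors over 100 FPKM are Trim11+/+ tumors 2 and 3 and Trim11+/- tumor 1, and the other 3 are Trim11+/+ tumor 1 and Trim11+/- tumors 2 and 3. In the first set 22 of the 32 genes were lower in Trim11+/-, beside 48.8% of all genes, with a median difference of -0.19. In the second set 25 were, beside 53.1% of all genes, with a median of -0.35. On the same log2(FPKM + 1) scale all genes had medians of 0.01 and -0.02. Of the 6 fibroblast markers, 1 was lower in the first set and 5 in the second, and of the 6 proteoglycans 3 and 6. All 7 elastic fiber and microfibril genes were lower in both sets. Of these, Fbln2, Fbn1 and Mfap2 were separate between the genotypes and have to be lower in any split. Mfap5 was counted with differences of only -0.034 and -0.060. With 1 tumor against 2, neither set allows a test. The genes that were lower in both sets numbered 17 of 32, beside 30.5% of all genes. This count shows little of the single genes, since the 6 separated genes have to be lower in any split and others were counted with differences near 0, such as Eln with -0.0033 and Pdgfrb with -0.0058 in the first set and Mfap4 with -0.052 in the second. The fibroblast markers Clec3b and Dpt differed by 0.60 and 0.17 in the first set and by -1.13 and -0.51 in the second, and Dcn by 0.28 and -0.29. The reverse was found for Lox, Tnc and Cthrc1, with -0.50, -0.80 and -0.37 in the first set and 0.61, 0.59 and 0.44 in the second.

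Myoepithelial markers, genes of the contractile basal cells that border the mammary ducts, were lower in Trim11+/- tumors as well. The 6 genes summed to 209, 105 and 180.0 FPKM in the Trim11+/+ tumors and to 80.7, 41.7 and 69.0 FPKM in the Trim11+/- tumors, none was at 0, and 5 of the 6 were called lower. Krt5, the basal keratin, had 105, 29.2 and 62.5 FPKM against 18.8, 7.14 and 16.9 FPKM, a log2 fold change of -2.05 (SE 0.52, adjusted p = 0.610 in limma). The annotated Gm44323 shares 129 bases with Krt5 on the opposite strand, 5.9% of its exons, and had a mean of 121 FPKM. Oxtr, the oxytocin receptor, and Trp63, the basal transcription factor p63, had log2 fold changes of -1.08 (SE 0.29) and -0.71 (SE 0.20). The part of these cells in the levels of the matrix genes was not tested.

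Markers of other cell types gave few calls, but most of their log2 fold changes were below 0. Of 8 pericyte and smooth muscle markers 7 were tested and none was called, all 7 with a log2 fold change below 0 and a median of -0.51, and the 8 had a sum of 279 FPKM in Trim11+/+ tumor 1 and of 97.6 to 124 FPKM in the other 5 tumors. Acta2, smooth muscle actin, was at 138 FPKM in Trim11+/+ tumor 1 and at 17.0 to 36.5 FPKM elsewhere. None of 7 endothelial, 8 macrophage or 7 luminal markers was called, and 6, 7 and 4 of them had a log2 fold change below 0, with medians of -0.10, -0.12 and -0.05. The macrophage receptor Csf1r was separate and lower in Trim11+/- tumors, at -0.42 (SE 0.19). It shares 15.1% of its exons with Hmgxb3 on the opposite strand, which had a mean of 4.46 FPKM. The endothelial, macrophage and luminal sums overlapped between the genotypes. In Trim11+/+ and Trim11+/- tumors they were 15.5 to 23.7 and 11.8 to 23.4 FPKM for endothelium, 289 to 372 and 264 to 299 FPKM for macrophages, and 1702 to 2111 and 1636 to 2161 FPKM for luminal epithelium. Of the neutrophil markers 3 were tested, all below 0 with a median of -0.31, and 2 were separate. Of these, S100a9 was called lower, with a log2 fold change of -1.20 (SE 0.36), on only 2 to 31 reads a tumor. The more abundant S100a8 overlapped between the genotypes and was not called, at -0.31 (SE 0.41). Of 7 T and B cell markers 1 was tested, Cd4, which was separate and lower at -0.37 (SE 0.16) and not called. The Schwann cell list of 5 had 4 tested and none called, and the 4 mesothelial markers were at or near 0 in every tumor, with sums of at most 0.196 FPKM. The part of these cell types in the matrix genes was not tested.

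**Figure D4:**
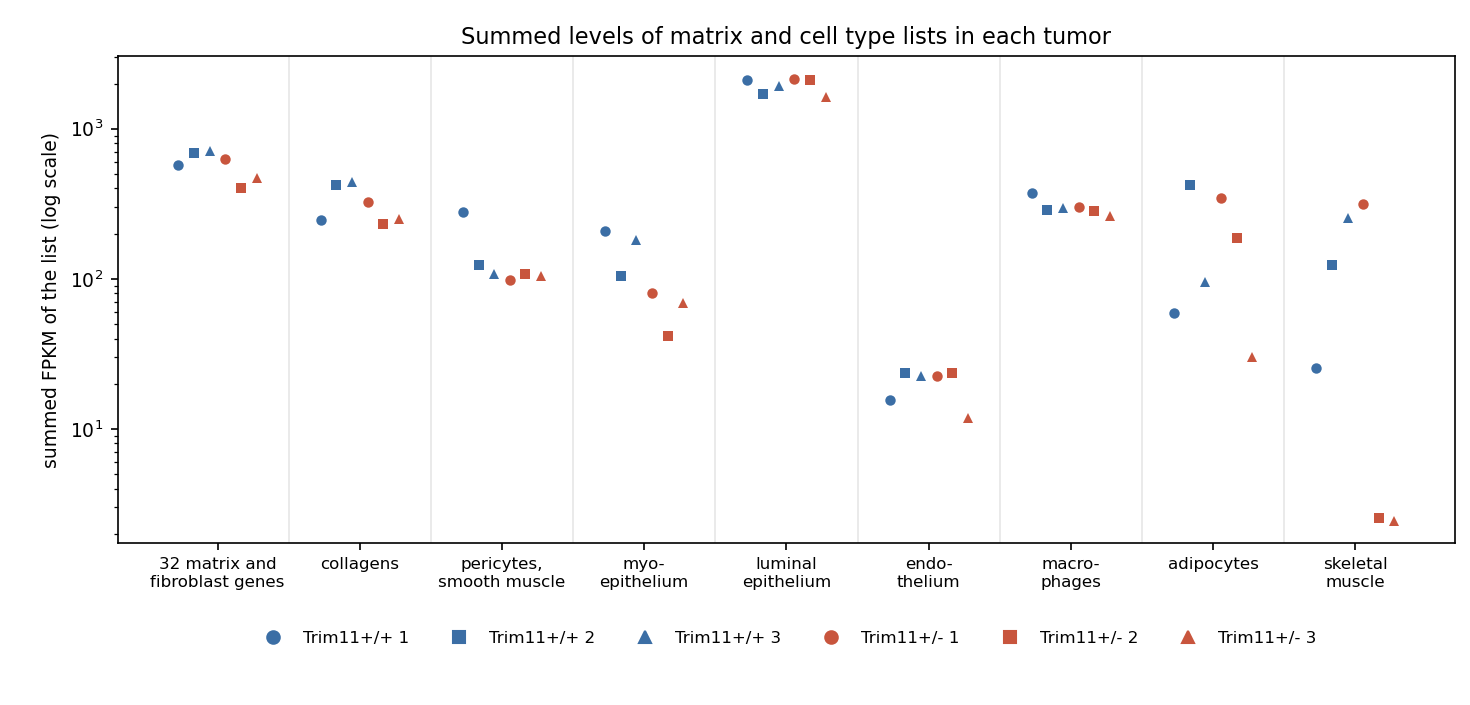
Summed FPKM (log axis) of the 32 genes, the collagens and 7 cell type marker lists in each tumor, with Trim11+/+ tumors in blue and Trim11+/- tumors in red. The myoepithelial sums of the 2 genotypes are separate, at 105 to 209 and 41.7 to 80.7 FPKM, and the skeletal muscle sum spans 2.44 to 316 FPKM, with the lowest 2 and the highest tumor all Trim11+/-.

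Other genes of the same matrix pathways also had mostly lower means in Trim11+/- tumors, with few calls. Of 14 fibrillar and associated collagens, 12 had a log2 fold change below 0, with a median of -0.46, and 4 were called lower. Col15a1, a collagen beneath basement membranes, had 7.02, 7.85 and 6.56 FPKM in the Trim11+/+ tumors and 4.56, 4.50 and 2.29 FPKM in the Trim11+/- tumors, a log2 fold change of -0.81 (SE 0.22, adjusted p = 0.634 in limma). Col5a3 and Col6a2, minor fibrillar and beaded filament collagens, had log2 fold changes of -0.75 (SE 0.21) and -0.57 (SE 0.22). The call of Col6a2 was lost with the replicate block, with columns scaled to the same total and without tumor 2 or 3 of either genotype. None of the 13 collagen maturation enzymes tested was called, with a median of -0.17.

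Further elastic fiber and small proteoglycan genes gave 2 calls among the 16 tested, with a median log2 fold change of -0.29. Fbln5, which encodes fibulin-5, an organizer of elastic fibers, had 5.52, 3.66 and 4.60 FPKM in the Trim11+/+ tumors and 3.28, 2.58 and 2.28 FPKM in the Trim11+/- tumors. These did not overlap, and the log2 fold change was -0.59 (SE 0.17, adjusted p = 0.634 in limma). Prelp, a proteoglycan 115.8 kb from Fmod on chromosome 1, was also called, with a log2 fold change of -0.64 (SE 0.23). Its call held in only 1 of the 6 fits that left out a tumor, the one without Trim11+/- tumor 1. On the opposite strand, Gm15851 shares 9.7% of the exons of Prelp and had a mean of 3.82 FPKM.

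Among the other basement membrane genes 2 of 11 were called lower, with 10 log2 fold changes below 0 and a median of -0.33. Col4a1, a chain of the collagen IV to which nidogen binds, had 39.3, 27.5 and 25.8 FPKM in the Trim11+/+ tumors and 20.1, 21.4 and 14.7 FPKM in the Trim11+/- tumors, and its call was lost without Trim11+/+ tumor 1 or Trim11+/- tumor 3. Lamc1, the laminin chain that nidogen-1 binds, and Hspg2, perlecan, were separate between the genotypes without a call, at log2 fold changes of -0.38 (SE 0.13) and -0.48 (SE 0.17).

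In the IGF pathway 9 genes beside Igf1 and Igfbp4 were tested and 2 were called lower, with a median of -0.47. Of the 9, 7 had a log2 fold change below 0 and 2 above. The 3 with the smallest limma p, given here, are binding proteins, as are others of the list. Igfbp2 had 26.8, 20.4 and 30.2 FPKM in the Trim11+/+ tumors and 10.4, 19.9 and 8.97 FPKM in the Trim11+/- tumors, a log2 fold change of -0.99 (SE 0.30, adjusted p = 0.635 in limma). Igfbp6 had a log2 fold change of -0.81 (SE 0.30) and was called, and Igfbp3 one of -0.47 (SE 0.27) and was not. The call of Igfbp6 was lost without Trim11+/+ tumor 1 or 3 or Trim11+/- tumor 2 or 3.

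The TGF-beta and platelet-derived growth factor lists hold ligands and receptors, and the first also targets. Of 13 genes for TGF-beta ligands, receptors and matrix targets, 8 had a log2 fold change below 0, with a median of -0.16, and Tgfbi, a matrix target, was the only call, at -0.62 (SE 0.21, adjusted p = 0.678 in limma). This call was lost without Trim11+/+ tumor 1 or 2 or Trim11+/- tumor 2 or 3. Ccn2, a classical target of the pathway, was separate between the genotypes at -0.39 (SE 0.18). The annotated Gm15270 lies on the opposite strand over 665 bases, 23.2% of the exons of Ccn2, with a mean of 23.1 FPKM. Reads in these shared bases cannot be told apart. None of the 4 ligands of the platelet-derived growth factor receptors was called. Pdgfa, a ligand of Pdgfra, had 7.10, 4.92 and 5.97 FPKM in the Trim11+/+ tumors and 3.55, 4.12 and 4.39 FPKM in the Trim11+/- tumors, separate and with a ratio of means of 0.670. On the opposite strand, 6330403L08Rik shares 26.1% of the exons of Pdgfa and had a mean of 0.825 FPKM.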

How the data were processed

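Poly(A) RNA-Seq libraries of 3 Trim11+/+ and 3 Trim11+/- MMTV-PyVT tumors were made with a kit that does not keep strand. After quality control with FastQC and adaptor removal with Cutadapt, the authors used HISAT2 2.1.0 for mapping to mm10, and they name Cufflinks for the deposited FPKM values. The submitters' processing notes also list Bowtie 0.12.2 and the builds mm8 and hg19, with no role. Of 137894 deposited FPKM values above 0, 98.7% equalled a whole number of reads, within 0.01 reads, divided by the GENCODE M21 exon length and by a library total. The totals recovered in this way were 8793199 to 11117125 reads, and 1 read on 1 kb was worth 0.09 to 0.114 FPKM. Tnxb was an exception, since its values gave no whole reads with the annotated length. Where rows shared a symbol, 1 was kept.

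Genes with a mean of at least 0.5 FPKM (17328) were fitted with limma 3.58.1 in R 4.3.3 (lmFit, eBayes with a trend) on log2(FPKM + 1), which understates changes of low genes, with Benjamini-Hochberg adjustment over all of them. A ratio of mean FPKM of 1.5 and an unadjusted p under 0.05 defined a call, after the study's methods. Other settings tried were each tumor left out, a block for the replicate number, pseudocounts of 0.1 and 0.5, no filter or a minimum mean of 1 FPKM, scaling by median ratios or to equal summed FPKM, eBayes fitted with no trend, a fold of 2 and, chosen after seeing the data, voom on the recovered reads and the split by muscle transcripts. The 32 genes and all lists were chosen with earlier results of these data known. Full values were given for genes that were called or separate and for the most and least abundant gene of each role, and from other lists at most the 3 genes with the smallest p were named. Ctgf was found as Ccn2. Each replicate is 1 labelled tumor, and p-values measure the spread between these tumors, which need not be that between mice. Human cell lines were not analysed here.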

Additional observations from a re-analysis of the deposited data

How the results depend on the processing

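In the settings that kept all 6 tumors and the 1.5-fold rule, 4 or 5 of the 32 genes were called lower, except with the replicate block, where 3 were (Fbln2, Fbn1 and Igfbp4). With a fold of 2, none of the 32 genes was called in limma and the calls on the pathway and cell type lists went from 17 to 5. Voom on the recovered reads called 5 of the 32. Leaving out 1 tumor gave 3 to 12 genes called lower, beside 1.71% to 2.70% of all genes. It gave 7 to 15 separate genes, beside 10.9% to 14.0% of all genes, where the share with all 6 tumors was 6.78%. The lists then held 12 to 35 calls, the most without Trim11+/- tumor 1. The median log2 fold change of the 32 genes was -0.60 to -0.27. None of the 32 genes was called higher or separate in that direction under any of these settings.

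Deviations of same-numbered tumors from their group means had correlations of -0.33, 0.04 and -0.13 over genes, beside -0.29 to 0.37 for the other pairs. With 3 tumors a genotype, these values cannot show whether the numbers pair the tumors. The lowest adjusted p of the 32 genes with the replicate block was 0.975 in limma.

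Leaving out 1 tumor turned the sign of 10 of the 32 genes, none of them called, whose log2 fold changes then ranged from -0.49 to 0.094 for Cthrc1, -0.59 to 0.029 for Dcn, -0.38 to 0.050 for Fap, -0.42 to 0.16 for Lox, -0.66 to 0.037 for Lum, -0.24 to 0.086 for Pdgfra, -0.43 to 0.075 for Pi16, -0.34 to 0.21 for Postn, -0.43 to 0.44 for Thbs1 and -0.25 to 0.25 for Thbs2. Among the list genes with the smallest p it turned 5 signs, with ranges of -0.44 to 0.077 for Cdh5, -0.81 to 0.014 for S100a8, -0.55 to 0.080 for Pparg, -0.93 to 0.41 for Lpl and -0.78 to 0.49 for Plin1. No sign of these or the other named genes turned under the settings that kept all 6 tumors, whereas within the 2 sets split by muscle transcripts several did, as given above. Few reads limit Fmod, Mfap2 and Fbln1 in their lowest tumor, with 23, 27 and 36, and with 3 tumors a genotype the 95% intervals of most genes include both 0 and a 1.5-fold difference. The causes were not tested.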

Other observations

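Trim11+/+ tumor 1 combined high smooth muscle transcripts with the highest levels of Thbs1, Vcan, Fmod and Eln among the 6 tumors. Its Myh11, smooth muscle myosin, was at 13.5 FPKM, beside 1.23 to 3.13 FPKM in the other tumors. The part of smooth muscle or myoepithelial cells in these 4 genes was not tested.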
